A study of Mus musculus with 2 samples.

Results

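The genes for core spliceosome proteins and SR splicing factors were examined in a pair of mouse embryonic stem cell cultures, one a control and one said by its label to overexpress Pc4, a transcriptional coactivator encoded by Sub1. Members were chosen by symbol, as rows of the count table whose name starts with Sf3a or Sf3b and a digit, Snrp, Srsf, Prpf or Lsm and a digit, or U2af. Of 24061 rows, 61 matched, and 60 of these were among the 14213 genes that reached 20 counts when both libraries were added. Snrpn, the remaining match, had 0 counts in both.

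Both groups were C57BL/6 embryonic stem cells grown with leukaemia inhibitory factor and serum replacement on mouse embryonic fibroblast feeder cells, and each was represented by 1 poly(A)-selected RNA library. The control cells were at passages 17 to 23 and the Pc4-OE cells at passages 24 to 37, so passage and label cannot be told apart. The overexpressing cells carried a lentivirus with a Venus fluorescent marker, picked as colonies into 3 lines, and which of these gave the library is not stated in the labels. The libraries held 10571463 and 10194783 counts.

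Sub1 itself stood at 530.3 CPM in the library labelled control and 235.0 CPM in the library labelled Pc4-OE, 2.26-fold lower. CPM is the count scaled to a library size adjusted with TMM factors (a trimmed mean of gene ratios). The lower Sub1 level goes against the label, so both libraries are called by their labels and every direction below is that of the labels. All differences are between 2 libraries, with no replicate check and no p-value, and the 95% intervals cover counting error only. Marker genes of other cells also differed between the libraries. All 25 fibroblast markers had a ratio above 1 and their summed level went from 8631 to 21348 CPM. All 17 macrophage markers had a ratio above 1, with sums of 229.8 and 649.4 CPM, and no measured marker of either kind was at 0 in either library. Of 19 embryonic stem cell markers 11 had a ratio below 1, where 50.7% of all genes did. With an interval that excludes 1, 7 were at least 1.5-fold lower (13.2% of all genes), 3 of them at least 2-fold (4.02%). None was at least 1.5-fold higher (18.8% of all genes). The summed level of these markers was 8478 and 6493 CPM, with none at 0. The part of this cell mixture in the results below was not tested, and in such bulk RNA fewer cells of a type cannot be told apart from less RNA per cell.

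The spliceosome removes introns from pre-mRNA. Small nuclear ribonucleoproteins (snRNPs) built on the U1, U2, U4, U5 and U6 RNAs assemble on each intron: U1 binds the 5′ splice site, U2AF and U2 with its SF3A and SF3B subcomplexes mark the 3′ end and branch point, and the U4/U6.U5 tri-snRNP brings the catalytic RNAs. SR proteins, which carry arginine-serine repeats, bind exons and recruit these particles, and many SR genes hold an unproductive exon that lowers their own mRNA through nonsense-mediated decay.

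Promoter sequences are shown for 5 members because a letter run of the ETS transcription factor family was found more often before these genes than before measured genes in general. They are the 250 bases that end 1 base before the RefSeq transcript start, 5′ to 3′ on the gene's strand (GRCm38.p6), with CCGGAAG or its reverse complement CTTCCGG in capitals. Sf3a3, Snrpb2, Snrpg and Sf3a2 hold it, and Prpf31, the lowest member by ratio, does not. Those shown with the run have log2 ratios of Pc4-OE to control from -0.90 to -0.52. Members closer to no difference hold it too and are not shown, among them Srsf5 (-0.11), Srsf11 (-0.15), Snrpc (-0.24) and Sf3b2 (-0.29).
Sf3a3, chr4:124714611-124714860, plus strand: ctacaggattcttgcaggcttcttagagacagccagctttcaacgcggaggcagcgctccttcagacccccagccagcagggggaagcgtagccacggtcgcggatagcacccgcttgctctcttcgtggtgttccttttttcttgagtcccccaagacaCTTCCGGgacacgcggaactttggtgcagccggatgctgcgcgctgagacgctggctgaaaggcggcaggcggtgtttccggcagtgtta
Snrpb2, chr2:143062819-143063068, plus strand: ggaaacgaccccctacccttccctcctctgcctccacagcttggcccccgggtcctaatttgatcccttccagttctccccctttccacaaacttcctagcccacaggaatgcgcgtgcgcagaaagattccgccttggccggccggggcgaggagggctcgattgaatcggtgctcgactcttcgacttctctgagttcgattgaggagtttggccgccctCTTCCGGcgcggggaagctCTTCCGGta
Snrpg, chr6:86371290-86371539, plus strand: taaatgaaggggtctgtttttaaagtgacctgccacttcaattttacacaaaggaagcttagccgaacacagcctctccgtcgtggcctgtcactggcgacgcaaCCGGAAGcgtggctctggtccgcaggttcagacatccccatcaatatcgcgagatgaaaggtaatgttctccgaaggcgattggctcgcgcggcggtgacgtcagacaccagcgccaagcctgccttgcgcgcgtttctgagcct
Sf3a2, chr10:80798485-80798734, plus strand: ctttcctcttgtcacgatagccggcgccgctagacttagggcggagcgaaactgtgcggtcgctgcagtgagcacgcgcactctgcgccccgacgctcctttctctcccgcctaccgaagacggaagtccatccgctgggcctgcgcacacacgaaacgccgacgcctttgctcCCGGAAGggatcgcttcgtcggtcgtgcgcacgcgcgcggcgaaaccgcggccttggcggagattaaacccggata
Prpf31, chr7:3629735-3629984, plus strand: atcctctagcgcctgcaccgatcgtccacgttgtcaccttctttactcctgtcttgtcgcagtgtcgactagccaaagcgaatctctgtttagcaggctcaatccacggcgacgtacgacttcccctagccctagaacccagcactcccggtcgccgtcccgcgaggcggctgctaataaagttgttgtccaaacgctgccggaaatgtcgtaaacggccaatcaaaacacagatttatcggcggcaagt

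Promoter windows were found for 50 of the 60 measured members. The ETS run stood in at least 1 window of 17 of them (34.0%), against 14.7% of 11225 measured genes with a window of the same length. Members were more abundant than measured genes in general (medians 91.6 and 28.7 CPM). The share among genes of like level was not computed. In Sf3a3 it ended 84 bases before the start, in Snrpb2 it occurred 3 and 22 bases before, in Sf3a2 70 and in Snrpg 139. Of the 17, 6 were SF3A or SF3B subunits and 4 were SR proteins. The nearest run lay within 100 bases of the start in 12 of 17 members and in 72% of all genes that hold one. The other letter runs searched on both strands stood closer to their share over all genes. The GC box GGGCGG was found in 66% of members and 63.5% of genes, CCAAT in 38% and 40.5%, the E-box CACGTG in 8% and 9.89%, TATAAA in 8% and 8.16%, and the NRF1 palindrome in 2% and 1.77%. Members with the ETS run had a median log2 ratio of -0.52 and members without it -0.39, which is a description and no test. For CCAAT these medians were -0.50 and -0.38, and for the GC box -0.36 and -0.46. For TATAAA (4 members) they were -0.76 and -0.39, and for the E-box (4 members) 0.01 and -0.41. Gaps of this size were thus not particular to the ETS run. A match is a match of letters only.

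Most spliceosome and SR protein genes were lower in the library labelled Pc4-OE, by modest amounts. Of the 60, 56 had a ratio of Pc4-OE to control below 1 (93.3%), where 50.7% of all 14213 genes did. For 51 members the interval lay wholly below 1, against 33.1% of all genes, and for 3 (Lsm11, Prpf39 and Prpf40b) wholly above 1, against 31.2%. The 6 whose interval held 1 were U2af1, Lsm7, Lsm10, Lsm12, Lsm14b and Srsf12. At least 1.5-fold lower, with an interval that excludes 1, were 18 members (30.0%), where 13.2% of all genes met that rule. Past 2-fold lower there was 1 member, Prpf31 (1.67%, against 4.02% of all genes). None was at least 1.5-fold higher, where 18.8% of all genes were, or 2-fold higher, where 11.8% were. These shares cover many genes scarcer than the members: the median level was 91.6 CPM for members and 28.7 CPM for all genes. Intervals also narrow as counts rise. Of genes with 1000 or more counts, 2.30% had a log2 ratio of at most -1, 60.2% of at most 0 and 94.1% of at most 1. For all genes these were 4.26%, 50.7% and 87.7%.

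The median log2 ratio of the 60 members was -0.41 (interval of the median -0.53 to -0.31), beside -0.01 for all genes measured. The members' own ratios ran from -1.13 for Prpf31 to 0.46 for Lsm11, with quartiles at -0.63 and -0.23. Well-counted genes in general stood slightly lower: genes with 1000 to under 10000 counts had a median of -0.12 and the 42 members in that band -0.48. In the band from 100 to under 1000 counts the medians were 0.04 for all genes and -0.31 for 13 members. Summed over all members, the level went from 11219 to 8142 CPM, which is 1.38-fold lower (interval 1.37 to 1.39), or from 1.11% to 0.827% of the counts of each library.

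**Figure D1:**
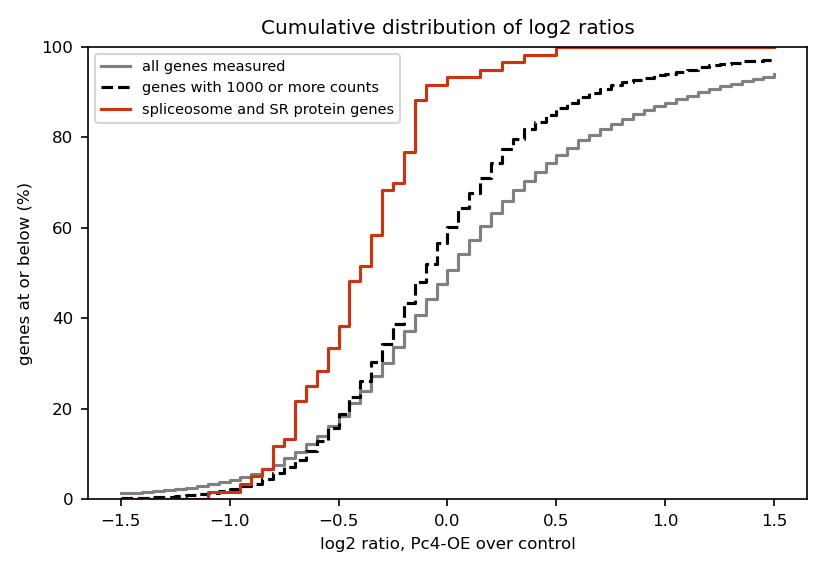
Cumulative share of genes (vertical axis, %) at or below each log2 ratio of Pc4-OE over control (horizontal axis), for all genes measured, for genes with 1000 or more counts and for the 60 spliceosome and SR protein genes. At a log2 ratio of 0 the curves stand at 50.7%, 60.2% and 93.3%.

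The Sm proteins B, D1, D2, D3, E, F and G form the ring that clasps every spliceosomal snRNA except U6. All 7 measured genes were lower, and their summed level went from 788.9 to 547.1 CPM (1.44-fold lower, interval 1.39 to 1.49). Snrpd1, the lowest, stood at 141.8 CPM (1477 counts) and 84.7 CPM (877 counts), 1.67-fold lower (interval 1.54 to 1.82). Snrpd2, the highest, stood at 83.6 and 74.98 CPM, a log2 ratio of -0.16 (interval -0.30 to -0.02). The intervals of these ring partners do not overlap. Snrpg had a log2 ratio of -0.72, Snrpd3 of -0.62, Snrpb of -0.53, Snrpe of -0.40 and Snrpf of -0.39. Snrpn, the imprinted neuronal copy of Snrpb, and Snurf, which overlaps it, were both listed at 0 in both libraries; a count of 0 allows up to 3 counts, which is 0.288 CPM in the library labelled control and 0.290 CPM in the other. How reads in exons shared by these overlapping genes were counted is not given in the sources used here, so these zeros are uncertain.

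Genes for proteins of the U1 and U2 particles differed among themselves. Snrpb2, the U2-specific B'' protein, went from 96.5 CPM (1005 counts) to 52.9 CPM (548 counts), 1.82-fold lower (interval 1.64 to 2.03). Its partner on U2, Snrpa1 (the A' protein), had a log2 ratio of -0.41. The U1 protein gene Snrpc (U1-C) had -0.24, and Snrpa (U1-A), the least lower of the role, stood at 142.2 and 124.0 CPM, a log2 ratio of -0.20 (interval -0.31 to -0.09). Snrpb2 and Snrpa encode related proteins, and the difference of their log2 ratios was -0.67 (counting interval -0.85 to -0.48). This and the later differences between pairs were chosen after the values were seen.

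SF3A and SF3B hold U2 at the branch point, with SF3B1 as the large scaffold that contacts the branch helix. All 9 genes were lower, from -0.90 to -0.13, and the sum went from 2490 to 1881 CPM. Sf3a3, an SF3A subunit, stood at 171.2 CPM (1783 counts) and 91.6 CPM (948 counts), 1.87-fold lower (interval 1.73 to 2.02). Sf3b1 was the closest to 1, at 665.9 CPM (6934 counts) and 607.0 CPM (6282 counts), a log2 ratio of -0.13 (interval -0.18 to -0.08). Subunits of the same complex thus stood apart by more than counting error: Sf3b4 less Sf3b1 was -0.70 (interval -0.89 to -0.52) and Sf3a3 less Sf3a1 -0.41 (-0.55 to -0.26). In log2 ratio Sf3b4 was at -0.84, Sf3b3 at -0.68, Sf3a2 at -0.52, Sf3a1 at -0.49, Sf3b6 at -0.36, Sf3b2 at -0.29 and Sf3b5 at -0.19. Sf3b3 overlaps Cog4, whose log2 ratio was -0.08.

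U2AF recognises the polypyrimidine tract and the AG at the 3′ splice site. U2af2, the large subunit, went from 284.9 to 186.9 CPM, 1.52-fold lower (interval 1.44 to 1.62). U2af1, the small subunit that reads the AG, was at 49.6 and 44.4 CPM, and its interval held no difference (log2 ratio -0.16, interval -0.34 to 0.02). The count of U2af2 was 5.74 times that of U2af1 in the library labelled control and 4.20 times in the other. U2af1l4, a U2AF1 paralog, had a log2 ratio of -0.42, while Psenen, which overlaps it, had 15 and 30 counts.

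The tri-snRNP genes held the lowest member of all. Prpf31, which encodes the protein that bridges the U4/U6 and U5 particles and is known for its mutations in retinitis pigmentosa, had 1612 counts (154.8 CPM) in the library labelled control and 730 counts (70.5 CPM) in the other. That is 2.19-fold lower (interval 2.01 to 2.399), at percentile 2.94 of the ratios of all genes measured. The gene lies on chromosome 7, 3629985 to 3642485 (GRCm38). Prpf6, the U5 protein that works at the same bridge, was at 167.9 and 142.8 CPM (log2 ratio -0.23), so Prpf31 had 0.922 times its counts in one library and 0.494 times in the other. The difference of their log2 ratios was -0.90 (interval -1.06 to -0.74).

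Prpf8, the scaffold around the catalytic centre, was the most abundant member in CPM, at 1171 CPM (12193 counts) and 851.0 CPM (8808 counts), a log2 ratio of -0.46 (interval -0.50 to -0.42). The U4/U6 proteins Prpf4 and Prpf3, which bind each other, had similar log2 ratios of -0.72 and -0.60 with overlapping intervals. Prpf38a was at -0.54, the kinase gene Prpf4b at -0.33, and Prpf38b, the highest of the role, at 195.6 and 169.8 CPM (log2 ratio -0.20, interval -0.30 to -0.11). Prpf38a less its paralog Prpf38b was -0.33 (-0.49 to -0.17). All 8 genes were below 1 and their sum went from 2208 to 1596 CPM.

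The remaining PRPF genes held 2 of the 4 members with a ratio above 1, both of proteins linked to the U1 particle. Prpf39, whose product associates with U1, was higher, at 83.7 CPM (872 counts) and 104.6 CPM (1083 counts), a log2 ratio of 0.32 (interval 0.19 to 0.45). It overlaps Fkbp3, which differed the other way (-0.19). Prpf40b had 58.3 CPM (607 counts) and 67.6 CPM (700 counts), with a log2 ratio of 0.21 (interval 0.06 to 0.37). Prpf19, the ubiquitin ligase of the activating complex, was at -0.68 and the second-step factor gene Prpf18 at -0.30.

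**Figure D2:**
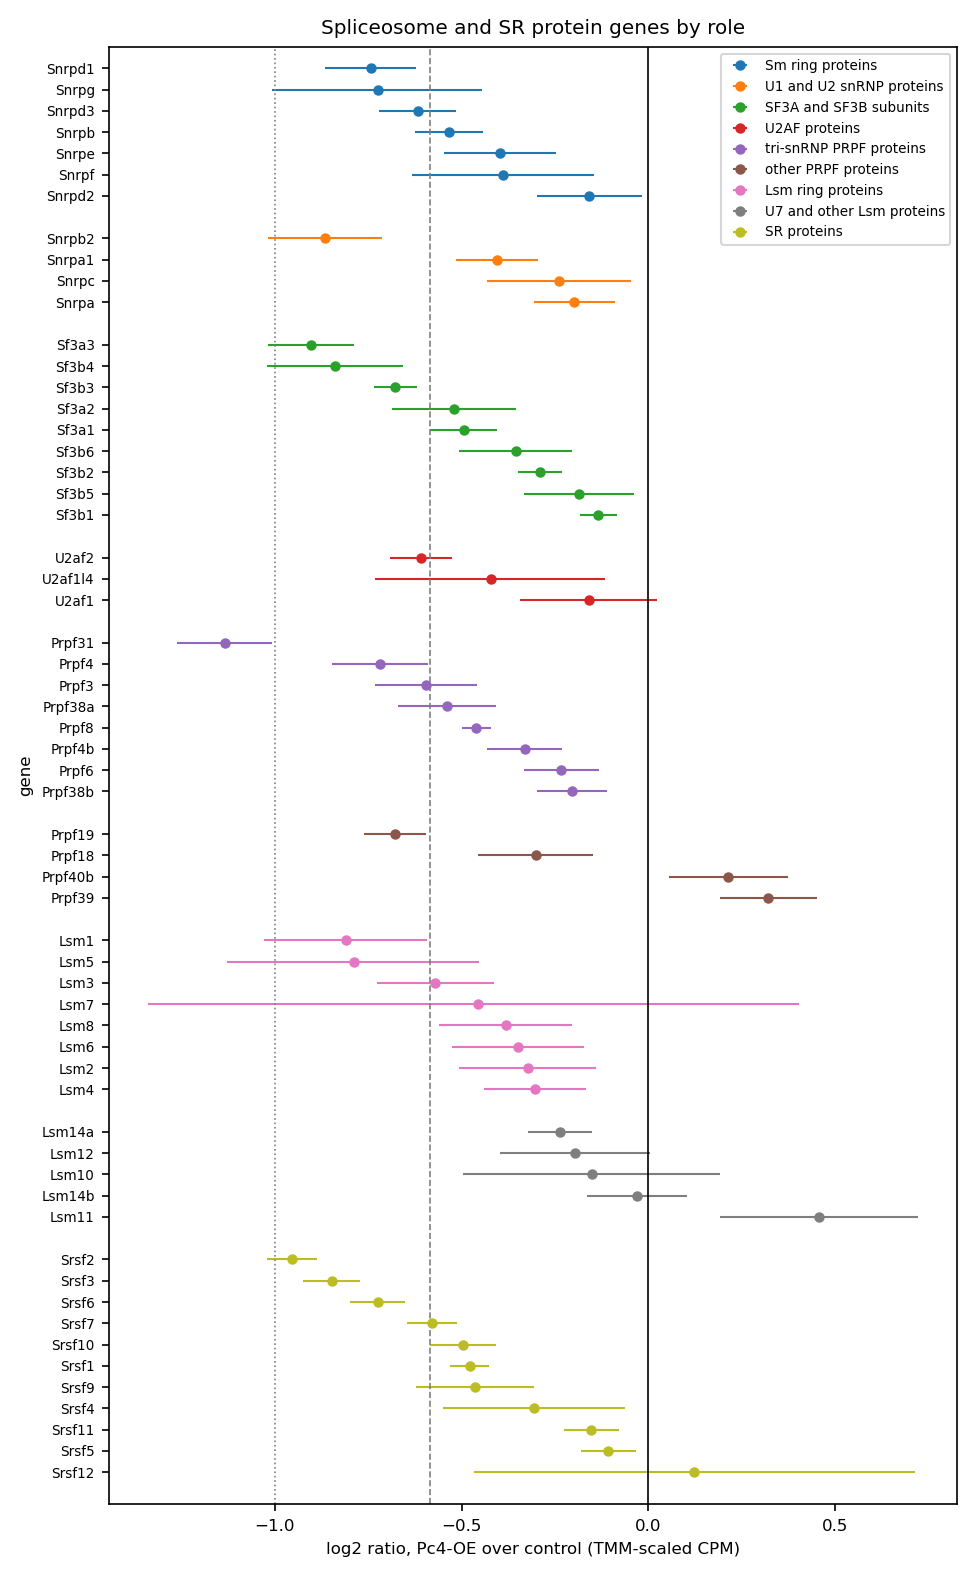
Log2 ratio of Pc4-OE over control (horizontal axis) for 59 measured genes (vertical axis), coloured by role, with 95% counting intervals as bars. The solid line marks no difference, the dashed line 1.5-fold lower and the dotted line 2-fold lower; Prpf31 alone has its whole interval left of the dotted line, and Lsm11, Prpf39 and Prpf40b have theirs right of the solid line.

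Lsm2 to Lsm8 form the ring on U6 RNA, and Lsm1 takes the place of Lsm8 in the cytoplasmic ring that promotes decapping of mRNA. All 8 genes were below 1, with a summed level of 415.0 and 304.7 CPM. Lsm1 was the lowest, at 46.4 CPM (483 counts) and 26.5 CPM (274 counts), 1.75-fold lower (interval 1.51 to 2.04), while Lsm8 had a log2 ratio of -0.38. The difference of Lsm1 and Lsm8 was -0.43 (interval -0.70 to -0.15). The shared ring members were Lsm5 at -0.79, Lsm3 at -0.57, Lsm7 at -0.46, Lsm6 at -0.35, Lsm2 at -0.32 and Lsm4 at -0.30 (95.4 and 77.3 CPM, interval -0.44 to -0.17). Lsm7 had the fewest counts of the measured members, 29 and 21, and its interval ran from -1.34 to 0.40. The next above the minimum was Srsf12 with 102 counts summed.

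The genes for Lsm proteins outside these rings showed little difference, and 1 was higher. Lsm11, which with Lsm10 replaces D1 and D2 in the U7 snRNP for histone mRNA processing, was the highest of all members, at 19.8 CPM (206 counts) and 27.1 CPM (281 counts), a log2 ratio of 0.46 (interval 0.19 to 0.72). Lsm10 was at 14.6 and 13.1 CPM (-0.15, interval -0.50 to 0.19). The intervals of these U7 partners lie next to each other and do not overlap. Lsm14a, a P-body protein and the lowest of the role, had 232.1 and 197.1 CPM (-0.24, interval -0.32 to -0.15), its paralog Lsm14b at 88.5 and 86.7 CPM (-0.03, interval -0.17 to 0.10), and Lsm12 at -0.20. The sum of the 5 was 397.1 and 360.8 CPM, 1.10-fold lower.

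The SR protein genes took the largest summed level of the 9 roles. It was 3366 CPM in the control column and 2306 CPM in the Pc4-OE column, 1.46-fold lower (interval 1.44 to 1.48). Of 11 genes 10 were below 1, but they spread from near no difference to 1.94-fold. Srsf2 (SC35), a classical SR protein that stays in the nucleus and marks nuclear speckles, went from 519.5 CPM (5410 counts) to 268.2 CPM (2776 counts), 1.94-fold lower (interval 1.85 to 2.03). It overlaps Mfsd11, whose ratio lay on the other side of 1 (21.2 and 29.5 CPM). Srsf3, the smallest classical SR protein and an mRNA export adaptor, went from 378.0 CPM (3936 counts) to 210.05 CPM (2174 counts), 1.80-fold lower (1.71 to 1.90). Srsf6 went from 386.0 to 233.4 CPM, 1.65-fold lower (1.57 to 1.74). These 3 were the SR genes past 1.5-fold.

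Srsf7, an export adaptor like Srsf3 and the member just outside the 1.5-fold rule, was at 439.2 and 293.9 CPM, 1.49-fold lower (1.43 to 1.56). Srsf1 (ASF/SF2), the most abundant SR gene in CPM in both libraries, was at 685.6 CPM (7139 counts) and 492.1 CPM (5093 counts), 1.39-fold lower (1.34 to 1.44). Srsf10, which acts as a repressor when dephosphorylated, was at 244.9 and 173.6 CPM, 1.41-fold lower (1.33 to 1.499), and Srsf9 at 75.4 and 54.7 CPM, 1.38-fold lower (1.24 to 1.54). Srsf4 was at 30.4 and 24.6 CPM, with a log2 ratio of -0.31 (interval -0.55 to -0.06).

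At the other end of the family, Srsf5 and Srsf11 were almost level. Srsf5 was at 299.4 CPM (3118 counts) and 278.0 CPM (2877 counts), a log2 ratio of -0.11 (interval -0.18 to -0.03). Srsf11 was at 302.4 CPM (3149 counts) and 272.1 CPM (2816 counts), a log2 ratio of -0.15 (-0.23 to -0.08). Srsf12, a scarce SR-like gene, was at 4.71 CPM (49 counts) and 5.12 CPM (53 counts), and its interval ran from -0.47 to 0.71. The difference of Srsf2 and Srsf5 was -0.85 (interval -0.95 to -0.75). The make-up of the SR counts differed with it. Srsf2 took 15.4% (exact binomial interval 15.1% to 15.8%) of all SR counts in the library labelled control and 11.6% (11.2% to 12.0%) in the other. Srsf5 took 8.90% (8.60% to 9.20%) and 12.1% (11.6% to 12.5%), and Srsf11 took 8.99% and 11.8%. Srsf1 took 20.4% and 21.3%.

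**Figure D3:**
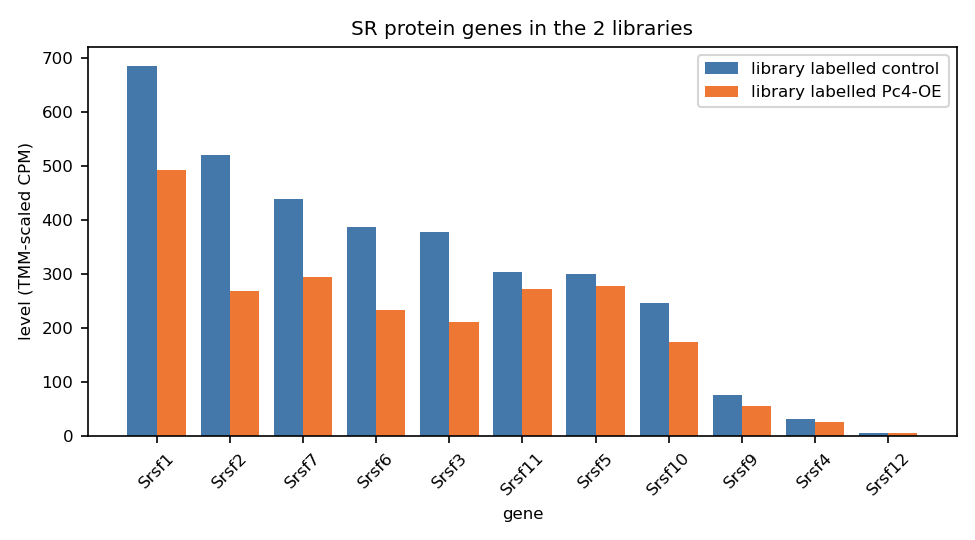
Level of each SR protein gene (vertical axis, TMM-scaled CPM, from 0) in the library labelled control and the library labelled Pc4-OE, 1 bar per library, ordered by the first. Srsf2 stands at 519.5 and 268.2 CPM, while Srsf5 and Srsf11 have bars of nearly equal height.

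Per kilobase of annotated exon (GENCODE M21, all exons of a gene merged), Srsf2 had the highest level of all members in the library labelled control, 175.6 CPM per kilobase, ahead of Prpf8 (156.9), Srsf7 (123.7), Srsf1 (120.1) and Snrpb (118.2). In the library labelled Pc4-OE, Prpf8 came first with 114.1 CPM per kilobase, then Srsf2 (90.7), Srsf1 (86.2), Srsf7 (82.8) and Snrpb (81.6). Srsf12 (1.49 and 1.63 CPM per kilobase) and Lsm7 (1.74 and 1.27) were the lowest in both. The same 5 genes thus led in both libraries in another order.

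The members shared other features that the rule did not use. They lie on 16 chromosomes, with 7 each on chromosomes 2, 4 and 7. GENCODE lists a transcript of the nonsense-mediated decay type for 28 of 60 members (46.7%), against 26.8% of 13578 measured genes with an annotation, and for 9 of 11 SR genes (all but Srsf10 and Srsf12) but 1 of 9 SF3A and SF3B genes, Sf3b1. Members with and without such a transcript had nearly equal median log2 ratios, -0.41 and -0.42. The counts are per gene, so the unproductive transcripts cannot be told from the coding ones. The median number of exons in the gene's most divided transcript was 7 for members and 9 for all genes, and the median GC content of the longest transcript 46.7% and 49.97%. Across the 60 members, which share the same 2 libraries, the log2 ratio had Pearson's r = -0.21 with log2 mean level, 0.07 with transcript GC, 0.16 with exon length and 0.02 with exon number.

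Other genes of the splicing pathway were compared as lists of textbook members. Beside each list's counts stand the shares over all genes: 50.7% below 1, 13.2% at least 1.5-fold lower and 18.8% at least 1.5-fold higher. At least 2-fold lower were 4.02% of all genes and at least 2-fold higher 11.8%. Outside the rule, 16 genes for snRNP proteins, among them U1-70K (Snrnp70, log2 ratio -0.36), had a median log2 ratio of -0.45. Of these, 15 were below 1, 5 at least 1.5-fold lower and 1 at least 1.5-fold higher. The helicase gene Snrnp200 (Brr2), which unwinds U4 from U6, was at 503.1 and 321.2 CPM (log2 ratio -0.65), the SF3B subunit Phf5a at -0.69 and Sart3, a recycling factor of U4/U6, at -0.76. Of 25 genes of the Prp19 complex and the catalytic steps, 24 were below 1, 6 at least 1.5-fold lower and 2 at least 2-fold lower, with a median of -0.36. The latter were Bud31, from 75.9 to 33.3 CPM (2.28-fold lower), and the cyclophilin gene Ppil1, from 142.1 to 63.2 CPM (2.25-fold). Crnkl1 was at -0.93. Bud31 and Sart3 lie on chromosome 5, as do Dhx15, Snrnp35 and Srrm3 of the lists below and the member Srsf9. A setting given below leaves out members on this chromosome, but not listed genes.

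The SMN complex, which loads Sm rings onto snRNAs, and its partners had a median of -0.48 over 19 genes, with 18 below 1 and 6 at least 1.5-fold lower. Gemin6 was the lowest of these, with 491 and 142 counts (47.1 and 13.7 CPM), 3.44-fold lower. Gemin4 (-0.93) and Gemin5 (-0.86), the latter the snRNA-binding subunit, followed, while Gemin2 was at 0.05. The 25 hnRNP genes, whose proteins coat nascent RNA and often oppose SR proteins, were all below 1, with 7 at least 1.5-fold lower and a median of -0.37. Hnrnpm had a log2 ratio of -0.94, Syncrip of -0.88 and Hnrnpu of -0.80.

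Of 19 early and splice site factors, 14 were below 1 and 2 at least 1.5-fold lower (median -0.30), among them Ddx39b, an ATPase for U2 recruitment and mRNA export, from 409.1 to 197.6 CPM (2.07-fold lower), and U2surp (-0.76), a count also near the share over all genes. Dhx15, a helicase of disassembly, was at -0.55. The 20 SR-related genes and SR kinases had a median of -0.12, with 11 below 1, 4 at least 1.5-fold lower and 1 at least 1.5-fold higher. Thrap3 (-0.84), Bclaf1 (-0.82) and Tra2b (-0.75) were lower. The gene at least 1.5-fold higher was Clk1, a nuclear kinase of SR proteins, at 102.0 and 154.7 CPM (log2 ratio 0.60). The intervals of Clk4 (0.54) and Clk3 (0.48) also lay above 1. That of Clk2 (0.08) held 1, and the kinase gene Srpk1 (-0.37) was lower.

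The minor spliceosome, which removes the rare U12-type introns, had 7 of 11 genes below 1 and a median of -0.12; Snrnp35 was at -0.81, Dhx15 at -0.55 and Snrnp48 at 0.65 (47.6 and 74.98 CPM). Of 15 exon junction and nonsense-mediated decay genes, 11 were below 1 and 3 at least 1.5-fold lower (median -0.17). Those with the interval bound farthest from 1 were Magoh (-0.86), Eif4a3 (-0.74) and Rbm8a (-0.52), all of the exon junction complex. Casc3, also of that complex, went the other way (0.22, interval 0.09 to 0.35), as did Smg6 (0.34) and Upf1 (0.20). Of 10 decapping and P-body genes, 7 were below 1 and 1 was at least 1.5-fold lower (median -0.27), a share close to that of all genes, with Dcp2, the decapping enzyme, at -0.70 and Ddx6 and Eif4enif1 both at -0.47.

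Of 24 measured tissue-regulated splicing factors, 13 were below 1, 4 at least 1.5-fold lower and 4 at least 1.5-fold higher, with a median of -0.09, so their counts lie near the shares over all genes. Past 2-fold higher were Esrp1, an epithelial factor (26.2 and 68.4 CPM, 2.61-fold), Mbnl2 (93.7 and 204.8 CPM, 2.19-fold), of the muscleblind family, and Nova2, a neuronal factor (58 and 128 counts, 2.22-fold). These 3 of 24 also lie near the share of all genes past that rule, 11.8%. Khdrbs1 (Sam68) was at -0.91. Srrm3 met the 2-fold lower rule on 18 and 3 counts, a ratio of 0.168 (interval 0.0316 to 0.574). Lists share some genes, among them Sart3, Dhx15 and Snrnp35.

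**Figure D4:**
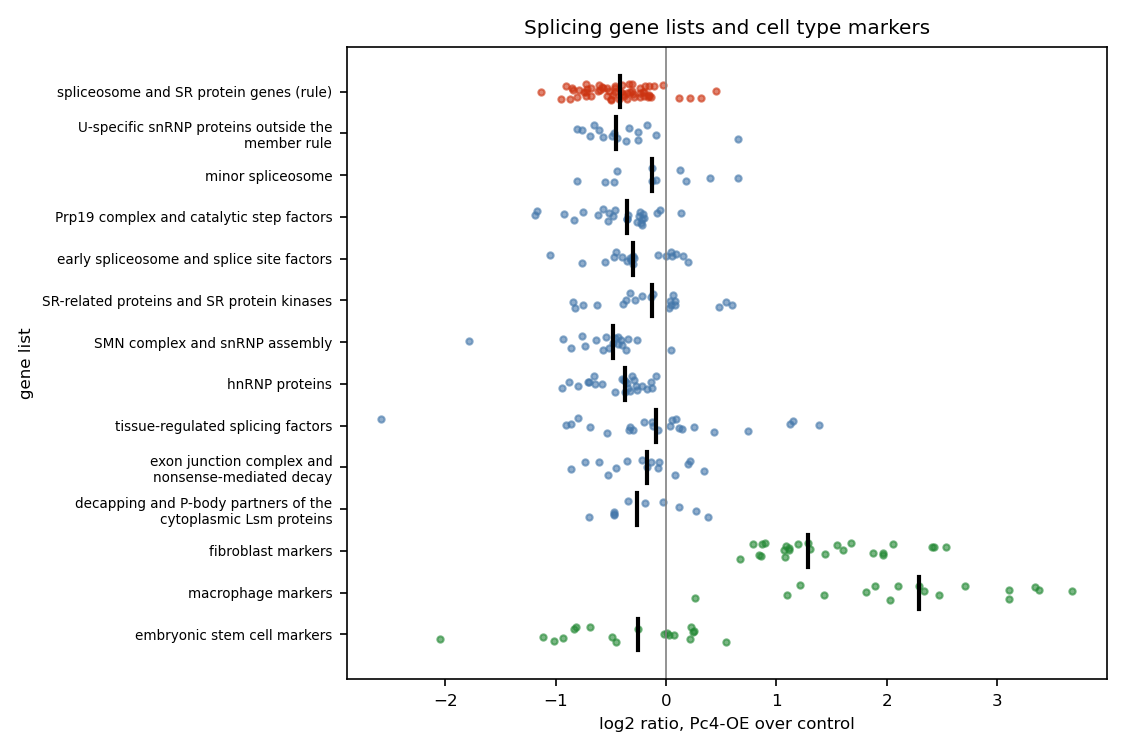
Log2 ratio of Pc4-OE over control (horizontal axis) of each measured gene in each list (vertical axis), with the median as a black bar; red marks the 60 spliceosome and SR protein genes, blue the splicing pathway lists and green the cell type markers. The red points have a median of -0.41, the SMN list -0.48 and the fibroblast and macrophage markers 1.29 and 2.29.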

How the data were processed

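The authors deposited whole-number read counts per gene for 2 poly(A) RNA libraries, 1 column each. STAR 2.4.1c, featureCounts and build mm10 are named per the submitters' processing notes. Not given in the sources used here are the annotation, strand setting and handling of multiply mapped reads, so overlapping genes and genes with processed pseudogenes may share or lose reads. Counts were scaled to CPM with TMM factors (edgeR 4.0.16). Ratios had no pseudocount and a minimum of 20 summed counts, with the exact (Clopper-Pearson) 95% interval of the 2 counts. Differences between log2 ratios carry a normal interval from the counts. A gene was called at 1.5-fold or 2-fold when its interval also excluded 1. With 1 library per group no test was run. Reads are not independent molecules, so intervals cover counting error only.

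All members were to be named, with full values for those past 2-fold, all SR genes, the extremes of each role and paralogs of opposite sign, and up to 3 genes per list by the interval bound farthest from 1. Counts, sums and medians cover all 60 members, but 1 member is not reported here by itself. Genes named outside this rule, after their values were seen, are the partner pairs, overlapping genes and divergent neighbours. So are Clk1, Clk2, Clk3, Clk4, Srpk1, Snrnp70, Gemin2, Nova2, Srrm3, Casc3, Smg6 and Upf1. Members and lists were chosen with earlier results of these data known. Gene positions and promoters came from RefSeq (GRCm38.p6), exon lengths and transcript types from GENCODE M21. The intervals and fold rules were tested on simulated counts that held counting error only, with the scaling factors given. Spread between cultures, the scaling itself, the lists and the promoters were not part of that test.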

Additional observations from a re-analysis of the deposited data

How the results depend on the processing

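With 1 library per group, depth limits the scarce members most, and the spread between cultures is unknown. With a coefficient of variation of 0.4 between cultures assumed and added to each interval, 0 members remained at least 1.5-fold lower and 0 at least 2-fold lower, beside 0.675% of all genes for either rule. Under this spread no interval excludes 1 at 2.19-fold, the fold of Prpf31, the lowest member, whatever the counts. The 0 was thus fixed in advance, and the 1.5-fold and 2-fold rules select the same genes. The other settings were library totals, DESeq2 size factors, a pseudocount of 0.5 CPM, a minimum of 100 counts or none, leaving out members on chromosome 5 and the first part of chromosome 15, and leaving out 11 members that overlap another gene with a row. Under these, 15 to 19 members were at least 1.5-fold lower, where 10.4% to 13.7% of all genes were. The 15 came from 60 members with library totals and from 49 without overlapping members. Past 2-fold lower was 1 member (3.15% to 4.18% of all genes), and 0 were at least 1.5-fold higher (15.2% to 20.3%). The median log2 ratio stood between -0.42 and -0.37. With library totals, 55 rather than 56 members were below 1, since Lsm14b crossed it, and the median of all genes was 0.03. Of the values of single members, 298 stayed within their counting interval and 1, that of Prpf8, moved past it (-0.42 with library totals). This tally was largely fixed in advance and is no check of single members. The count minimums cannot change a member's ratio. Library totals and DESeq2 size factors shift all log2 ratios by the same amount, so only a narrow interval can be left. The DESeq2 factors were 1 for both libraries, so that setting left the counts unscaled. No symbol in the table names a pseudogene of a member, so that part of the last setting removed none. No paired analysis was possible because each group has 1 library.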

Other observations

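For 10 members, another measured gene starts within 1000 bases on the opposite strand and runs the other way (GENCODE M21). Of these 10 neighbours, whose median log2 ratio was -0.32, 8 had a ratio below 1, where 50.7% of all genes measured did. The intervals of the neighbours Tfpt, Xpc, Qpctl and Sppl2b held no difference. Prpf31 starts 56 bases from Tfpt, a subunit of the INO80 remodeller, which had a log2 ratio of -0.27 (interval -0.57 to 0.03) beside -1.13 for Prpf31. Prpf4 and Cdc26, a subunit gene of the anaphase-promoting complex, were both lower (-0.72 and -0.64). Srsf11 was almost level at -0.15 while Lrrc40, 23 bases away, was at -0.57 (interval -0.70 to -0.44). Sf3a1 (-0.49) and Ccdc157 (0.37, interval 0.05 to 0.69) lay on opposite sides of 1.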
